A study of Mus musculus with 3 samples.

Results

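Mural cells of the mouse diaphragm were described in 3 single-cell RNA-Seq libraries. They were chosen by their unique molecular identifiers (UMIs, each marking 1 captured mRNA molecule): at least 3 UMIs summed over *Rgs5*, *Kcnj8*, *Abcc9* and *Myh11*, and no UMI of *Pdgfra* (a gene of fibro-adipogenic progenitors, FAPs), *Pecam1* (endothelium), *Ptprc* (leukocytes) or *Pax7* (muscle stem cells, MuSCs). The rule took 62 of 12275 cells, or 0.505% (95% interval 0.387 to 0.647). Each group was 1 library, made from the pooled costal diaphragms of 2 male mice without the central tendon and rib attachments. The groups were WT C57Bl/6J mice on control diet (CD), WT C57Bl/6J mice on high-fat diet (HFD, 45% of calories from lipid), and B6.129S2-Thbs1tm1Hyn/J mice, which lack *Thbs1* in the whole body (KO), on HFD. All had been on their diet for 6 months, from 2 months of age. Tissue was digested with collagenase II, and all cells were isolated on the same day. The paper gives DAPI as a marker of dead cells for its flow cytometry. No record ties a cell to a mouse, so no difference between groups has a replicate check, and no test or p-value was made. Intervals are exact 95% intervals (Poisson for summed UMIs, Clopper-Pearson for shares, conditional binomial for ratios) and cover counting error only.

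Mural cells wrap blood vessels outside the endothelium. Smooth muscle cells encircle arteries, arterioles and larger veins and set vessel width with a contractile apparatus of smooth muscle actin and myosin. Pericytes lie along capillaries and venules within the endothelial basement membrane, depend on endothelial PDGF-B acting through the receptor *Pdgfrb* encodes, and carry far less of that apparatus, and cells of intermediate type lie between them along the vessel tree. Of the genes of the rule, *Rgs5* encodes a regulator of G protein signalling typical of mural cells, *Myh11* the smooth muscle myosin heavy chain, and *Kcnj8* and *Abcc9* the pore and the sulfonylurea receptor of the vascular ATP-sensitive potassium channel. *Kcnj8* (GRCm38 chr6:142564837-142571614) and *Abcc9* (chr6:142587862-142702315) are neighbours on the minus strand, *Rgs5* lies at chr1:169655501-169695813 on the plus strand and *Myh11* at chr16:14194535-14291372 on the minus strand.

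The WT CD library held 17 mural cells of 4132 (0.411%, 0.240 to 0.658), the WT HFD library 23 of 3774 (0.609%, 0.387 to 0.913) and the KO HFD library 22 of 4369 (0.504%, 0.316 to 0.761). These intervals overlap, and with 1 library per group a difference in mural share between the groups could not be assessed. The mural cells held 71870, 129304 and 138485 UMIs in the same order. Their median was 3980 UMIs per cell (560 to 25899), against 7733 over all cells. Mitochondrial genes took a median of 9.70%, 6.91% and 4.41% of UMIs in WT CD, WT HFD and KO HFD mural cells, against 3.32% over all cells. Scrublet called 1.23% of all cells and 0 mural cells as doublets. Between pairs of libraries 7, 7 and 2 barcodes were shared, none of them of a mural cell.

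**Figure D1:**
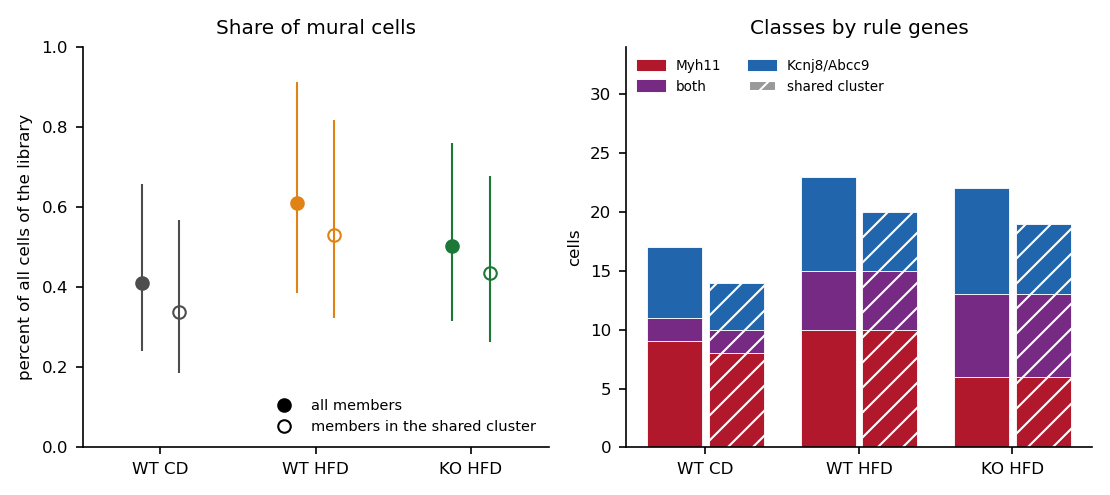
Left, mural cells as a percent of all cells of each library, with exact 95% intervals, for all members (filled) and for members in the shared cluster (open). Right, the number of cells of each class by rule genes in each library, for all members (plain bars) and members in the shared cluster (hatched bars). The intervals of the shares overlap, and the *Myh11* class takes 9, 10 and 6 cells in WT CD, WT HFD and KO HFD.

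Most members clustered together, while 9 stood apart. When all cells were clustered on all variable genes, those of the rule among them, 53 of the 62 (14, 20 and 19 by library) fell into 1 cluster of 28, here called the shared cluster. Since the rule genes helped to form it, this partly restates the rule. *Notch3*, the receptor through which endothelial Jagged ligands keep mural cells differentiated and the marker the rule did not use, had a UMI in 40 of the 53 and in 1 of the other 9. Of those 9, 7 held 153 to 658 UMIs of the FAP list (*Dcn*, *Gsn*, *Lum* and others) and no *Rgs5*, and they entered through a few UMIs of *Kcnj8* or *Abcc9*. The eighth, the deepest member, was a KO HFD cell with 25899 UMIs, among them 96 of *Myog* and 10 of *Mymk*, genes of differentiating muscle precursors. The ninth lay in the MuSC cluster with *Myh11* and *Rgs5* UMIs. Together the 9 held 28.7% of the UMIs of all members and 92.3% of their *Dcn* UMIs, so values are given below for all 62 and, where these differ, for the 53.

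Cells close to the threshold of the rule often carried FAP genes. Of 6 members with exactly 3 rule UMIs, 3 lay in the shared cluster and 1 had *Rgs5*, with a median of 139.5 FAP-list UMIs. Of 12 cells just outside it, with 2 rule UMIs and the excluded genes at 0, 3 lay in the cluster and 3 had *Rgs5*, with a median of 128.5. Of the 48 members with 10 or more rule UMIs, 47 lay in the cluster, 42 had *Rgs5* and 40 had *Notch3*, and their median was 1 FAP-list UMI. A second group just outside the rule held its genes at depth: 22 cells had 10 or more rule UMIs and a UMI of an excluded gene (16 of them *Pecam1*, 6 *Pdgfra*, 2 *Ptprc*), 17 of them lay in the shared cluster and 17 had *Notch3*. The shared cluster was not made of members alone: of its 241 cells, 188 were not members, 168 of these with fewer than 3 rule UMIs, and 131 of the 168 had a UMI of the endothelial genes *Pecam1* or *Cdh5*.

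**Figure D2:**
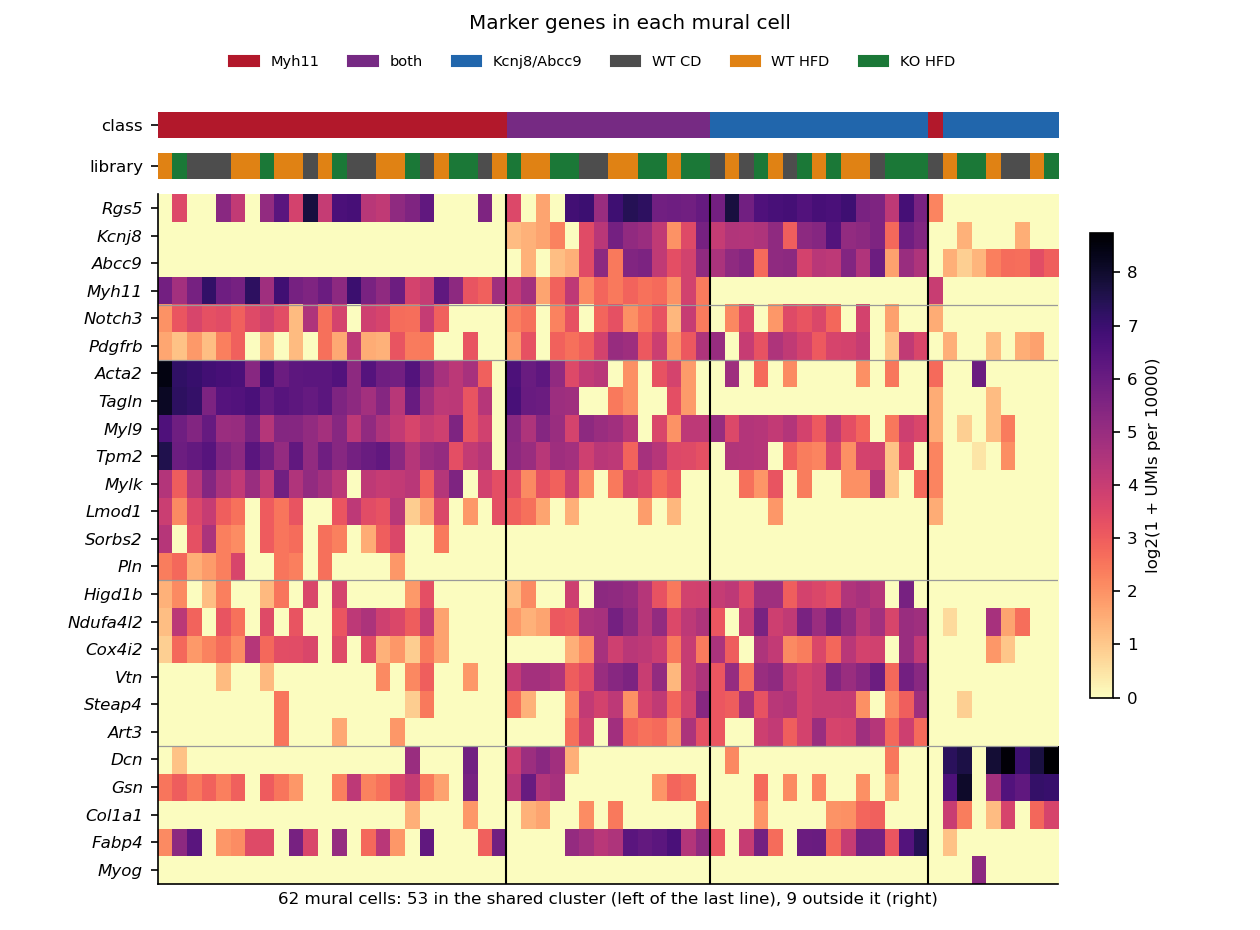
Each column is a mural cell and each line a gene, shaded by log2(1 + UMIs per 10000 UMIs of the cell). The strips give the class by rule genes and the library. From the top, the blocks are the rule genes, *Notch3* and *Pdgfrb*, smooth muscle genes, pericyte genes, and genes of other cell types. The 9 cells right of the last line lie outside the shared cluster, and 7 of them carry *Dcn* and *Gsn*.

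Against all other cells, several contractile genes were among those with the largest ratios in mural cells. Levels are CPM: the cells of a group were summed, and each gene's UMIs were scaled to a total of 1000000. Since each transcript is counted once, at its 3′ end, they are not scaled by length. Among 1806 genes with at least 100 CPM, 181 (10%) were at least 2-fold higher in mural cells in all 3 libraries and 150 (8.31%) at least 2-fold lower. Every gene describes cells picked on 4 mural genes, so these counts are a description of the chosen cells. Of the smooth muscle list 19 of 20 genes compared were higher, and of the pericyte list 11 of 15; many were compared because they reached 100 CPM in the mural cells, so that these counts support nothing further. Of 7 leukocyte genes and 9 FAP genes compared, 7 and 7 were lower. The rule left out cells with *Ptprc* or *Pdgfra*, so these counts support nothing further either.

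*Higd1b*, which encodes a mitochondrial protein of the hypoxia-inducible family typical of pericytes, had the largest ratio outside the genes of the rule. It was at 334, 472 and 519.9 CPM in WT CD, WT HFD and KO HFD mural cells and at 0.547 CPM in other cells, a log2 ratio of 9.72. *Cox4i2*, a subunit isoform of cytochrome c oxidase, was at 417, 409.9 and 419 CPM against 2.02. *Ndufa4l2*, a relative of a respiratory chain subunit, was at 863, 828 and 1090.4 CPM against 34.9. Of 9 genes of mitochondrial isoforms compared, these 3 and *Cox8a* were at least 2-fold higher in all 3 libraries, beside 10% of all genes. The 3 reached 100 CPM in the mural cells alone, so that the count supports nothing further. The 3 libraries lay close together for *Cox4i2*, and *Higd1b* was lowest in the WT CD library, with overlapping intervals.

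*Casq2*, the calcium store protein of the sarcoplasmic reticulum, was at 253 CPM in mural cells and 0.459 CPM in others. The odorant receptor gene *Olfr558*, at 124 CPM against 0.254, and *Nrip2*, a nuclear receptor-interacting protein gene, at 165 against 0.420, stood next. The contractile genes *Lmod1* (leiomodin), *Tagln* (transgelin), *Acta2* (smooth muscle actin), *Myl9* and *Mylk* (a myosin light chain and its kinase) and *Tpm2* (tropomyosin) were also among the 15 largest ratios. *Acta2* was at 5635, 8793 and 4578 CPM in WT CD, WT HFD and KO HFD mural cells, against 43.6 in other cells. The order of the libraries rests on few cells. Of the 1137 WT HFD *Acta2* UMIs, 834 lay in the deepest cell of that library's members. Of the 634 KO HFD UMIs, 159 lay outside the shared cluster. In the shared cluster without that deepest cell, *Acta2* was at 7799, 4201 and 5005 CPM in the same order.

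Of 25 genes listed through which vessels are told to relax or contract, 6 reached 100 CPM, each of them in the mural cells. The other 19 were not compared. These 6 were at least 2-fold higher in all 3 libraries, beside 10% of all genes. They were compared through their mural level, so that the count supports nothing further. They were *Gucy1a1* and *Gucy1b1*, the subunits of the nitric oxide receptor, *Pde3a* and *Pde5a*, phosphodiesterases that end cyclic nucleotide signals, and the endothelin receptors *Ednra* and *Ednrb*. *Gucy1a1* was at 640.0, 495 and 519.9 CPM in WT CD, WT HFD and KO HFD mural cells against 7.95 in other cells. Of the ion-handling genes, *Ano1* (a calcium-activated chloride channel), *Casq2*, and *Atp2a2* and *Pln* (the sarcoplasmic calcium pump and its inhibitor phospholamban) were higher as well. *Rgs4*, a relative of *Rgs5*, was at 291 CPM against 6.01.

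*Notch3* was at 696, 340.3 and 412 CPM in WT CD, WT HFD and KO HFD mural cells and at 9.53 in other cells. Of 9 transcription factor genes compared, 4 were higher in all 3 libraries (*Tbx2*, *Nr2f2*, *Mef2c* and *Epas1*), beside 10% of all genes. Each of the 4 reached 100 CPM in the mural cells alone, so that the count supports nothing further. *Tbx18* and the angiopoietin receptor gene *Tek* had 0 UMIs in all members, below 8.83 CPM at a floor of 3 counts. *Itga1*, a collagen-binding integrin subunit, and *Mcam*, an adhesion molecule of vessels, were higher too. The contrasts were also seen at equal depth. After every cell was thinned to 2000 UMIs, which left out 12 mural cells, *Higd1b* was found in 46% of mural cells (54.8% before thinning) and in 0% of 4808 FAPs (0.0415% before thinning; FAPs taken as cells with *Pdgfra* at 2 or more UMIs and the other excluded genes at 0). *Notch3* was found in 48% against 0.250% of FAPs, but also in 19.3% of MuSCs, where it is known to be expressed. *Acta2* was found in 64% against 0.728% of FAPs and 21.0% of MuSCs.

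Within the mural cells the genes of the rule divided profiles rich in smooth muscle genes from profiles rich in pericyte genes. Members were classed by those genes alone: 25 had *Myh11* without *Kcnj8* or *Abcc9* (*Myh11* cells, 40.3%, 28.1 to 53.6), 23 had *Kcnj8* or *Abcc9* without *Myh11* (37.1%, 25.2 to 50.3) and 14 had both (22.6%, 12.9 to 35.0). The shared cluster held 24, 15 and 14 of them. None was positive for *Rgs5* alone, but a UMI can be missed: thinned to 2000 UMIs, 12% of 50 cells kept *Rgs5* alone, and the *Myh11* class held 38%. These classes are ranges of counts, not cell types.

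Sums over gene lists differed between the classes. Summed over the 25 smooth muscle genes other than *Myh11*, the *Myh11* cells of the shared cluster held 73.6 to 1263 UMIs per 10000, with a median of 442. The *Kcnj8*/*Abcc9* cells held 44.2 to 148 (median 88.1) and the cells with both 56.8 to 419.6 (median 168). The ranges overlapped, but no cell of the other classes reached the *Myh11* median. Summed over the 17 pericyte genes outside the rule, the order was turned, with 0 to 70.8 (median 44.2) in *Myh11* cells, 44.4 to 258 (median 186) in *Kcnj8*/*Abcc9* cells and 57.5 to 266 (median 133) in cells with both. The smooth muscle sum was above the pericyte sum in 24 of 24, 3 of 15 and 7 of 14 cells, and the sums lay within 2-fold of each other in 0, 7 and 8. *Rgs5* was found in 16 of the 24 *Myh11* cells, in all 15 *Kcnj8*/*Abcc9* cells and in 12 of the 14 with both. A split of the 62 cells by k-means set only 11 of the 25 *Myh11* cells apart and put 14 with the other classes. Between its groups the log2 ratio of the smooth muscle list was 0.48 against 3.19 between *Myh11* and *Kcnj8*/*Abcc9* cells, and *Acta2* and *Tagln* turned to -0.031 and -0.25.

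**Figure D3:**
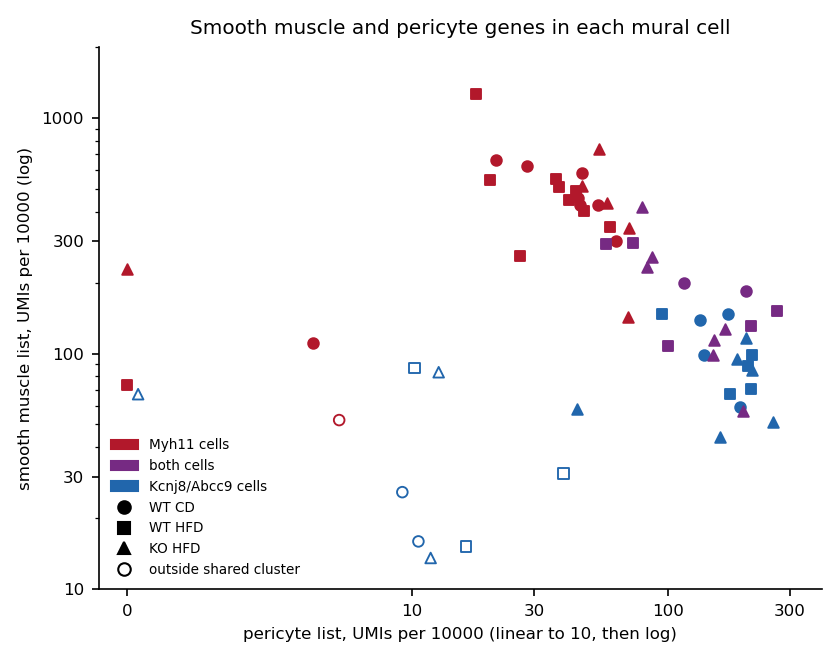
Each point is a mural cell, with the UMIs per 10000 of the pericyte list on the horizontal axis (linear to 10, then log) and of the smooth muscle list on the vertical axis (log). Colour gives the class by rule genes, shape the library, and open symbols mark the 9 cells outside the shared cluster. *Myh11* cells of the shared cluster lie at 73.6 to 1263 on the smooth muscle axis and no higher than 70.8 on the pericyte axis. The medians of cells with both lie between those of the other classes, while the cells overlap the *Kcnj8*/*Abcc9* cells on the pericyte axis (57.5 to 266 against 44.4 to 258).

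A sign of cell quality moved with the classes. The median mitochondrial share was 12.1% in *Myh11* cells, with 16 of 25 over 10%, against 3.96% in *Kcnj8*/*Abcc9* cells and 4.23% in cells with both. Requiring at least 500 genes and at most 10% mitochondrial UMIs would lower the *Myh11* share from 40.3% to 20.9%. The part of cell damage in the class shares was not tested.

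Contractile genes were highest in *Myh11* cells and lowest in *Kcnj8*/*Abcc9* cells. *Acta2* was at 13479 CPM (12864 to 14117) in the *Myh11* cells of the shared cluster, 3192 in cells with both and 345 in *Kcnj8*/*Abcc9* cells. *Tagln*, which encodes an actin-binding protein of smooth muscle, was at 10834.5 CPM in *Myh11* cells and 3112 CPM in cells with both, and had no UMI in the 15 *Kcnj8*/*Abcc9* cells, where 3 counts would be 64.6 CPM. These levels rest on few cells: without the deepest *Myh11* cell *Acta2* was at 8788 CPM in the class (8242 to 9360) and *Tagln* at 6994. Of the 14 cells with both, 4 that also held at least 30 FAP-list UMIs carried 172 *Acta2* and 169 *Tagln* UMIs, and in the other 10 cells the genes were at 742 CPM (489 to 1080) and 687 CPM (445 to 1015). *Tpm2* was at 7313, 2149 and 775 CPM, *Mylk* at 1948, 689.7 and 280.0, and *Lmod1* at 839, 192 and 21.5, again in the order *Myh11*, both, *Kcnj8*/*Abcc9*, with *Lmod1* at 82.5 CPM in the 10 cells just named. *Myl9* fell less steeply, at 4316, 2197 and 1206 CPM (1430 in the 10 cells), and was found in 14 of the 15 *Kcnj8*/*Abcc9* cells. *Pln*, at 262 CPM in *Myh11* cells, and *Myocd*, the cofactor that switches on smooth muscle genes, at 105 CPM, had no UMI in the other classes.

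*Sorbs2*, an adaptor of the actin cytoskeleton, had 103 UMIs (772 CPM) in 14 of the *Myh11* cells of the cluster and 0 in its 29 other members, where 3 counts would be 27.6 CPM. Other genes were also mostly found in *Myh11* cells. *Tesc* (calcineurin B homologous protein) was at 375 CPM against 9.19, *Palld* (the actin-bundling palladin) at 847 against 55.2, *Nrip2* at 389.6 against 36.8, and *Map3k7cl* at 382 against 55.2. *Notch3* differed less, at 742 against 469 CPM, a log2 ratio of 0.66 (0.16 to 1.18). It was found in 19 of 24 *Myh11* cells and 21 of the 29 others.

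Because smooth muscle genes are known for serum response factor bound at CArG boxes, the 250 bases before the transcription start were read for the motif. The box was searched as CC, then 6 bases of A or T, then GG, on both strands, in the RefSeq promoters of GRCm38.p6. It was present in 1 of the 22 smooth muscle list genes in that table (4.55%), in 0 of 14 pericyte list genes and in 439 of 27018 genes overall (1.62%). Allowing 1 G or C among the 6 inner bases, a form added after the promoters were read, gave 3 of 22 (13.6%), 0 of 14 and 2640 of 27018 genes (9.77%), and 1 of 4 FAP list genes and 2 of 8 endothelial list genes (25% each). The smooth muscle genes were *Myl9*, *Acta2* and *Crip1*. The promoters of the first and second are shown because these genes fall across the classes together but unequally, and capitals mark the boxes. *Myl9* lies at chr2:156775214-156775463 on the plus strand, with the exact box beginning 161 bases before the start and the other form 99 before it. *Acta2* lies at chr19:34255374-34255623 on the minus strand, with boxes of the second form 84 and 34 bases before the start.
Myl9: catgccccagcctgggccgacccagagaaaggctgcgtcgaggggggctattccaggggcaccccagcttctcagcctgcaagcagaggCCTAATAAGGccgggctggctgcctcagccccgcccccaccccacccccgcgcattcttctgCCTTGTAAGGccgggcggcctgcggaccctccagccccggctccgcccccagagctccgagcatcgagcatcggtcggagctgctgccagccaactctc
Acta2: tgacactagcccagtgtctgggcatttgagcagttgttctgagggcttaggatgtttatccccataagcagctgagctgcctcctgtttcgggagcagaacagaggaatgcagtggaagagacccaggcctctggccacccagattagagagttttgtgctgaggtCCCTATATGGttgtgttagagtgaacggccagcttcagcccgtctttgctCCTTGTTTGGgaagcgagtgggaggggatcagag
A match is a description of the letters in this window and not a bound site.

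The pericyte side was led by *Vtn* (vitronectin), *Art3* (an ADP-ribosyltransferase) and *Steap4* (a metalloreductase). Of these, *Vtn* and *Steap4* were not restricted to mural cells. At equal depth *Vtn* was found in 50% of mural cells, 13.3% of FAPs and 6.80% of MuSCs. *Steap4* was found in 44% of mural cells, 15.3% of FAPs and 1.26% of MuSCs. *Art3* was found in 38% of mural cells and 0.874% of FAPs. The paper lists *Vtn* among the transcripts enriched in its largest FAP subpopulation. *Vtn* was at 2627 CPM in the *Kcnj8*/*Abcc9* cells of the shared cluster, 1957 in cells with both and 89.9 in *Myh11* cells. *Steap4* was at 1119.8, 769.9 and 29.97 CPM and *Art3* at 1184, 513 and 22.5, in that order. *Higd1b* (1572, 914 and 202 CPM), *Ndufa4l2* (2477, 1411 and 697) and *Cox4i2* (1077, 593 and 382) followed in that order, and each was found in 10 or more of the 24 *Myh11* cells. The middle values again came from unlike cells: the 4 cells with both that carried FAP-list UMIs held 3 *Higd1b*, 10 *Ndufa4l2* and 0 *Cox4i2* UMIs, and in the other 10 cells these genes were at 1485, 2145 and 1017 CPM, with intervals that held the *Kcnj8*/*Abcc9* values. In the same 10 cells *Steap4* was at 1182 and *Art3* at 880 CPM. *Pdgfrb* was at 1055, 850.1 and 277 CPM in *Kcnj8*/*Abcc9* cells, cells with both and *Myh11* cells. Its level in FAPs was 115 CPM, so it was not restricted to mural cells. *Cspg4*, the NG2 proteoglycan gene often used to label pericytes, was at 388, 96.2 and 255 CPM and did not follow this order.

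**Figure D4:**
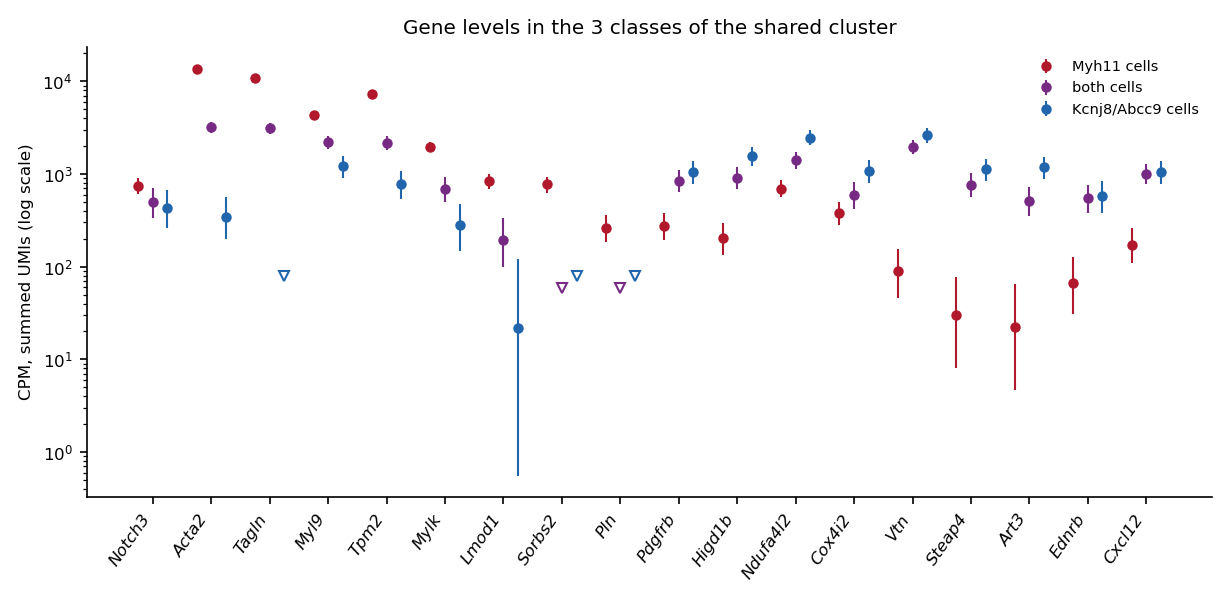
CPM (log scale) of 18 genes in the *Myh11*, both and *Kcnj8*/*Abcc9* cells of the shared cluster, with exact Poisson 95% intervals. Open triangles mark genes with no UMI in a class, drawn at the upper end of the interval. Contractile genes fall from *Myh11* to *Kcnj8*/*Abcc9* cells, *Vtn*, *Steap4* and *Art3* rise, and *Notch3* differs least of the 18.

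Of 4 vasoactive genes compared between the *Myh11* cells and the other members of the cluster, 1 (*Ednrb*) was at least 2-fold lower in *Myh11* cells, beside 14.4% of all genes. *Ednrb* was at 581, 545 and 67.4 CPM in the *Kcnj8*/*Abcc9*, both and *Myh11* cells, while *Ednra* (280.0, 176 and 127 CPM) had overlapping intervals. The nitric oxide receptor subunits *Gucy1a1* (969, 754 and 674 CPM) and *Gucy1b1* (797, 754 and 472) were present along the whole range. Of the basement membrane, the type IV collagen genes *Col4a1* (1443, 1010.5 and 359.6 CPM) and *Col4a2* (646, 529 and 225) were lower in *Myh11* cells, and *Sparcl1*, a SPARC-like adhesion modulator, was higher (839.9, 1027 and 2345 CPM). *Cxcl12*, a chemokine that vessels use to hold leukocytes and progenitors, was at 1055, 1010.5 and 172 CPM. *Mgp*, which keeps vessel walls from calcifying, was at 5039, 3400.3 and 517 CPM. The cells with both were again unlike, except for *Cxcl12*. The 10 without FAP-list UMIs at that level had *Ednrb* at 907, *Col4a1* at 1650, *Cxcl12* at 1072 and *Mgp* at 5197 CPM. Their intervals overlap those of the *Kcnj8*/*Abcc9* cells. The other 4 had these genes at 38.5, 115, 924 and 885 CPM, and only for *Cxcl12* did the intervals of the 10 and the 4 overlap. All 23 *Mgp* UMIs of the 4 lay in 1 cell.

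Not every gene of the smooth muscle list lay on the smooth muscle side. *Casq2* was at 797 CPM in *Kcnj8*/*Abcc9* cells, 337 in cells with both and 202 in *Myh11* cells. Setting the 24 *Myh11* cells of the cluster against its 29 other members, 86 of 653 genes (13.2%) were at least 2-fold higher and 94 (14.4%) at least 2-fold lower. Of the smooth muscle list 14 of 17 genes compared were higher and 1, *Casq2*, was lower, with a median log2 ratio of 2.10 against -0.12 over all genes. Of the pericyte list 0 of 15 were higher and 12 lower, with a median of -1.45. The classes were set by *Myh11*, *Kcnj8* and *Abcc9*, which belong to these lists. Some listed genes, such as *Map3k7cl* and *Art3*, reached 100 CPM only on the side where they were higher. These list counts and medians therefore support nothing further. *Ifitm2*, *Ifitm3* and *B2m* of 4 interferon genes compared and *Cxcl12*, *Cebpd* and *Cxcl1* of 5 inflammatory genes were lower. Of 15 immediate early genes, which digestion of tissue can induce, none passed 2-fold in either direction.

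In a second comparison, which took members in and out of the cluster but not the 14 cells with both, 25 *Myh11* cells were set against 23 *Kcnj8*/*Abcc9* cells. Of 774 genes, 110 (14.2%) were at least 2-fold higher in *Myh11* than in *Kcnj8*/*Abcc9* cells and 161 (20.8%) lower. Of the smooth muscle list 16 of 17 were higher. Of the pericyte list 5 of 13 were lower (*Art3*, *Steap4*, *Vtn*, *Higd1b*, *Cygb*), and all 7 FAP genes compared were lower. Here too the classes were set by genes of the smooth muscle and pericyte lists, so the counts of these lists support nothing further. Of the 10 largest falls, *Pi16*, *Lum*, *Sfrp4* and *Cilp* are fibroblast genes and *Myog* came from 1 cell outside the shared cluster.

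For WT HFD against WT CD, the question was whether long-term diet-induced obesity altered the mural profile. Over all members, 100 of 537 genes (18.6%) were at least 1.5-fold higher and 51 (9.5%) lower. Among members of the shared cluster, 53 of 374 (14.2%) were higher and 34 (9.09%) lower. The interval of the ratio lay above 1 for 41 and below 1 for 43 of the 374 genes. Among the largest ratios over all members, *Fn1* (log2 4.85) and *Col8a1* (3.85), rested on single cells outside the cluster: 49 of the 52 *Fn1* UMIs and 63 of the 78 *Col8a1* UMIs of the WT HFD members. *Apoe* went from lower (log2 -0.72) over all members to higher (4.21) in the shared cluster, where 49 of its 69 WT HFD UMIs lay in 1 cell.

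Summed *Notch3* and *Hes1* were lower in the WT HFD members. *Notch3* was at 951 CPM (703 to 1257) in the WT CD and 459 (334 to 617) in the WT HFD cells of the shared cluster, a log2 ratio of -1.05 (-1.67 to -0.43), and at 601 in KO HFD cells. It was nevertheless found in fewer of the WT CD cells (9 of 14, against 17 of 20 in WT HFD), and 13 of the 49 WT CD UMIs lay in 1 cell. *Hes1*, a transcriptional repressor that Notch receptors switch on, was at 892, 303 and 316 CPM. Of its 46 WT CD UMIs 13 lay in 1 cell and 11 in another, and without the deepest WT HFD cell it was at 374 CPM in WT HFD. Of 16 Notch genes listed *Notch3* and *Hes1* were the only ones abundant enough to compare. Within the *Myh11* cells *Notch3* was at 1097 CPM (794 to 1478) against 488 (324 to 706). The WT HFD value rests in part on the deepest cell, with 23653 of the 57338 UMIs of these cells but 7 of *Notch3*. Without that cell *Notch3* was at 513 CPM in the WT HFD cells of the cluster. In the members of the cluster other than *Myh11* cells *Notch3* was at 486 (178 to 1058) against 416 (238 to 676), with overlapping intervals. Whether the classes differed in this was not tested. When cells with 1 UMI of an excluded gene were let in, the log2 ratio over all members went from -1.03 to -0.15, and as a mean over cells it was -0.46. The WT CD members also had the highest mitochondrial share (9.70% against 6.91%) and the fewest UMIs per cell, and the part of these in the *Notch3* difference was not tested.

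*Vtn*, *Itgb1* and *Ifitm3* were higher, with intervals of the ratio above 1, but the classes were not evenly spread: cells other than *Myh11* cells held 24.0% of the cluster's UMIs in WT CD, 40.1% in WT HFD and 61.1% in KO HFD. Within *Myh11* cells alone the log2 ratio of *Vtn* turned to -1.36 (2 against 4 UMIs). Within *Kcnj8*/*Abcc9* cells alone, in and out of the cluster, that of *Ifitm3* turned to -0.29. Of the *Ifitm3* UMIs of all members, 44 of 56 in WT CD and 70 of 162 in WT HFD lay outside the cluster, with 26 and 48 in single cells. The part of class make-up in these differences was not tested. *Vtn* was at 543, 1075 and 1317 CPM in WT CD, WT HFD and KO HFD cells of the cluster. *Itga1* was at 329.8, 574 and 590.0 CPM (the log2 interval for WT HFD against WT CD reached -0.006) and *Itgb1* at 737, 1117 and 959. *Ifitm3*, an interferon-induced membrane gene, was at 233, 960.5 and 1759 CPM in the cluster. Over all members it had 56, 162 and 195 UMIs, of which 44, 70 and 28 lay outside the cluster. *Rrad*, a Ras-related inhibitor of calcium channels, was at 815, 188 and 179 CPM, but 33 of its 42 WT CD UMIs lay in 1 cell.

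Of the smooth muscle list 2 of 14 genes compared in the cluster were higher (*Acta2* and *Tagln*) and 1 lower, and of the pericyte list 1 of 9 was higher (*Vtn*). Of all genes compared 14.2% were higher and 9.09% lower, so these counts lay near the share of all genes. The lists had median log2 ratios of 0.006 and -0.079 against 0.05 over all genes. The contractile genes depended on a single cell. A WT HFD *Myh11* cell with 23653 UMIs held 18.3% of the UMIs of that library's members and 57.3% of their smooth muscle list UMIs. With it, *Acta2* was at 7799, 11870.5 and 5005 CPM in WT CD, WT HFD and KO HFD cells of the cluster, and without it the WT HFD value was 4201. *Tagln* was at 5665, 9866 and 4246 CPM, and 3702 in WT HFD without it. The direction of WT HFD against WT CD therefore turned for both genes. Over the 25 genes of the list, the cluster was at 44386, 52472 and 27994 CPM, with 28254 in WT HFD without that cell. In the members of the cluster that were not *Myh11* cells the sum was 14090, 15736 and 16659 CPM, with intervals of 12074 to 16346, 14507 to 17042 and 15625 to 17743. The pericyte list in the same cells was at 15062, 14358 and 12692 CPM, with overlapping intervals for the neighbours in that order.

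**Figure D5:**
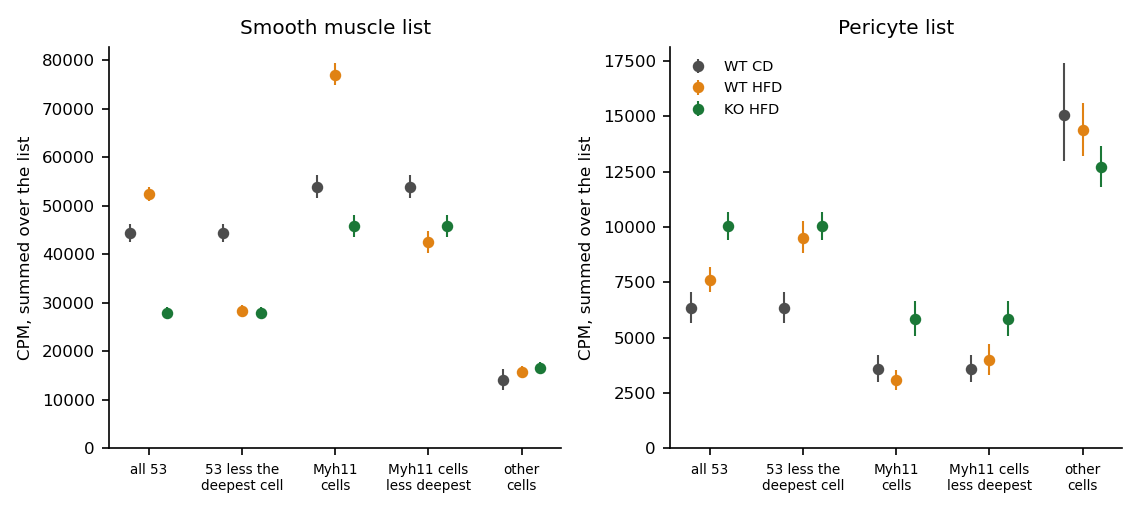
Summed CPM of the smooth muscle list (left) and the pericyte list (right) in the shared cluster by library, with exact Poisson 95% intervals, for all 53 members, for these without the deepest cell, for *Myh11* cells with and without it, and for the other members. The WT HFD smooth muscle value falls from 52472 to 28254 when 1 cell is left out, and the other members lie between 14090 and 16659 in every library.

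For KO HFD against WT HFD, the question was whether the mural profile of obese mice differed without *Thbs1*. This comparison shares the WT HFD library with the one above, its deepest cell included. Reads came from the 3′ end, and *Thbs1* itself was counted at 9, 17 and 19 UMIs in WT CD, WT HFD and KO HFD members (125, 131 and 137 CPM). Which exons the allele lacks is not given in the sources used here, so this count does not check the KO label. The share of *Myh11* cells was 9 of 17 in WT CD (52.9%, 27.8 to 77.0), 10 of 23 in WT HFD (43.5%, 23.2 to 65.5) and 6 of 22 in KO HFD (27.3%, 10.7 to 50.2), with overlapping intervals. Thinned to 2000 UMIs it was 50%, 40% and 30% of 10, 20 and 20 cells. Of the genes that chose the cells, *Myh11* was at 3715, 2715 and 852 CPM, *Kcnj8* at 306, 619 and 845, *Abcc9* at 668, 657 and 542, and *Rgs5* at 2838, 2838 and 3423 in WT CD, WT HFD and KO HFD members.

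Over all members, 147 of 780 genes (18.8%) were at least 1.5-fold higher in the KO HFD library and 92 (11.8%) lower. In the shared cluster 92 of 506 (18.2%) were higher and 52 (10.3%) lower. That interval lay above 1 for 116 and below 1 for 55 of the 506. *Cdkn1c* and *Myog*, among the highest over all members, came from the muscle precursor cell of the KO HFD library (476 of 488 and 96 of 96 UMIs), and 108 of the 123 WT HFD UMIs of *Cilp*, which was lower, came from 1 FAP-type cell.

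In the shared cluster, 9 of 15 smooth muscle genes compared were lower in the KO HFD library and 0 higher, beside 10.3% lower and 18.2% higher of all genes. The median log2 ratio of the list was -0.74 against 0.18 over all genes. The sum of the list had a log2 ratio of -0.93 over all members, 0.22 without the deepest cell of each of these libraries, and -0.013 for the shared cluster without the WT HFD cell. *Acta2* and *Tagln* turned in the same way, to 0.56 and 0.50 without the deepest cells. *Sorbs2* (668 against 73.8 CPM) and *Lmod1* (709.9 against 221) kept their direction without that cell, at 249.5 and 471 CPM in WT HFD, but 46 of the 64 WT HFD UMIs of *Sorbs2* lay in it. *Sparcl1* was at 2561, 2213 and 759 CPM in WT CD, WT HFD and KO HFD cells of the cluster, with 1539 in WT HFD without the deepest cell. It was found in 13 of 14, 18 of 20 and 18 of 19 cells, and 61 of its 132 WT CD UMIs lay in 1 cell. *Sparcl1* was also higher in *Myh11* cells than in the other classes, and the part of class make-up in its order was not tested.

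On the pericyte side 4 of 14 genes compared were higher in the KO HFD cells of the cluster (*Colec11*, *Steap4*, *Ndufa4l2* and *Ebf1*) and 0 lower. Of all genes compared 18.2% were higher and 10.3% lower. The list had a median log2 ratio of 0.27 against 0.18 over all genes. Of the 50 *Colec11* UMIs, 43 lay in 6 members that also held FAP-list UMIs. *Steap4* was at 407, 313 and 558 CPM and *Ebf1*, a transcription factor of mesenchymal and B cells, at 912, 720.4 and 1233. Without the deepest WT HFD cell their log2 ratios fell short of 1.5-fold, at 0.43 and 0.50, and that of *Ndufa4l2* did too. Within *Kcnj8*/*Abcc9* cells alone, in and out of the cluster, the ratios of *Steap4* and *Ebf1* turned to -0.22 and -0.74, with -0.39 for the pericyte list. The cells of the cluster other than *Myh11* cells, which held 61.1% of its UMIs in KO HFD and 40.1% in WT HFD, had the pericyte list at 12692 against 14358 CPM, the opposite direction, and in *Myh11* cells it was at 5822 against 3070. *Fst*, the activin antagonist follistatin, was at 0, 20.9 and 1212 CPM, and *Ccn3*, a matricellular gene, at 0, 94.0 and 579 CPM, where 3 counts would be 58.2 CPM in the WT CD cells. *Fst* had a UMI in 4 of 19 KO HFD cells, and 82 of its 115 UMIs lay in 1 of them. Of the 55 *Ccn3* UMIs 44 lay in 1 cell, and the UMIs of both genes in the cluster lay in 6 members that also held 32 to 83 FAP-list UMIs.

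Of the inflammatory genes compared in the cluster 4 of 5 (*Cebpb*, *Cxcl1*, *Cebpd* and *Cxcl12*) and of the interferon genes 3 of 4 (*B2m*, *Ifitm2* and *Ifitm3*) were past 1.5-fold higher and none lower, beside 18.2% higher and 10.3% lower of all genes compared. These list counts took in the deepest WT HFD cell and were not repeated without it. Without that cell *Ifitm3* was at 1220 CPM in WT HFD against 1759 in KO HFD, short of 1.5-fold. Over all members 3 of 5 inflammatory genes were higher, but 0 of 4 interferon genes were higher and 2 were lower (*H2-D1* and *B2m*), with a median log2 ratio of -0.29. *B2m*, the light chain of MHC class I, was at 282 CPM in 8 of 20 WT HFD cells and 579 CPM in 15 of 19 KO HFD cells of the cluster, and at 750.2 and 448 CPM over all members, the opposite direction. *Cxcl12* was at 438 and 748 CPM in the cluster. Of 13 immediate early genes 5 were higher and 1 lower, *Fos* among the former at 1389 and 3203 CPM, and digestion is known to induce such genes. The part of digestion, and of the smaller number of *Myh11* cells in the KO HFD library, was not tested.

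Markers of other cell types differed in how far they reached the mural cells. The leukocyte list was at 14.7 CPM over all members, and *Lyz2*, at 2278 CPM in other cells, had no UMI. *Fabp4*, a fatty acid-binding protein of capillary endothelium, was at 12907 CPM in endothelial cells (*Pecam1* and *Cdh5* at 3 or more UMIs together), and at 1881, 3316 and 3224 CPM in the *Myh11*, *Kcnj8*/*Abcc9* and both cells of the shared cluster. It was found in 39 of 53 members, of which 22 had no other UMI of the endothelial list. *Fabp4* was nearly absent from FAPs, at 12.6 CPM. *Cd36*, the fatty acid translocase, was at 255, 904.5 and 962.4 CPM in these classes, 1671 in endothelial cells and 0.961 in FAPs. The part of endothelial RNA in these levels was not tested.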

How the data were processed

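Mononuclear cells of the costal diaphragm were profiled with 10x 3′ chemistry, 1 library per group. The authors aligned reads with Cell Ranger (6.1.1 in the submitters' processing notes, 6.1.0 in the matrix headers) to mm10 (GRCm38) and deposited UMI counts for 32285 genes and filtered barcodes. Here 102759615 UMIs in 12275 cells were used without a further filter. UMIs of the chosen cells were summed and divided by their total (CPM). Genes compared had at least 100 CPM in 1 of the groups and, between classes or libraries, 50 UMIs over both. A gene was counted as higher or lower at 1.5-fold between libraries and 2-fold elsewhere, with no test, since each group is 1 library. Python 3.11.15, numpy 2.4.6 and scipy 1.17.1 were used. Cells were clustered with scanpy 1.11.5 and leidenalg 0.10.2 (2000 variable genes, 30 components, 15 neighbours, resolution 1), and Scrublet was run per library without removing cells. Promoters came from RefSeq for GRCm38.p6. Genes named beyond the lists were the 15 largest ratios over other cells (at least 100 CPM and a UMI in 25% of mural cells), the 10 largest each way between classes and the 8 largest each way between libraries, in all members and in the shared cluster, where the interval of the ratio excluded 1. The sums and intervals were tested on simulated data. The members, classes and lists were chosen with earlier results of these data known. Alternatives changed the rule's threshold, the excluded genes, cell quality, cluster membership, the scaling, the class split and the filter on low values. A result of the ion-handling list is not reported here.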

Additional observations from a re-analysis of the deposited data

Results flagged for a closer look

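Outside the mural cells as chosen, 22 cells had at least 10 UMIs of *Rgs5*, *Kcnj8*, *Abcc9* and *Myh11* together. Each also had a UMI of *Pdgfra*, *Pecam1*, *Ptprc* or *Pax7*, so it was no member and counted among the 12213 other cells. The 22 came as 3, 12 and 7 cells from WT CD, WT HFD and KO HFD. Their median was 9914.5 UMIs per cell against 3980 in the members, 4 of them had exactly 1 UMI of the excluded genes, and Scrublet called 2 as doublets. *Notch3* was found in 17 of the 22.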

How the results depend on the processing

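Of 216 values of the 19 principal results under alternatives, 125 stayed within counting error or 1.5-fold, 90 moved and 1 reversed, where reversed is said only of a ratio past 1.5-fold (2-fold between classes) as reported; 6 changed sign when smaller ratios are counted too. Of 536 values of 49 single genes, 26 reversed and 33 changed sign. All alternatives chosen at the start were run. Leaving out cells over 20000 UMIs, and doing so within the shared cluster, were added after seeing the data, as were the class split within the cluster, the class levels without the deepest *Myh11* cell or the 4 cells with FAP-list UMIs, and the relaxed CArG box. No paired analysis was possible because each group has 1 library. The cause of these shifts was not tested.

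With at least 500 genes and at most 10% mitochondrial UMIs, the WT CD mural share was 0.234% (0.411% as reported) and the *Myh11* share 20.9%, which was 17.7% when k-means set the classes. Of genes by class, 63 were higher with k-means (110 as reported). Lower genes (161 as reported) numbered 66 and 49 with at least 5 and 10 rule UMIs, 279 with at most 1 excluded UMI allowed, 49 in the shared cluster, 91 with the quality filter, 96 with median-of-ratios scaling, 544 with k-means and 53 in the cluster without cells over 20000 UMIs. The log2 ratio of the smooth muscle list between classes (3.19) was 2.85 with 10 rule UMIs, 3.47 with 1 excluded UMI, 2.84 in the cluster, 3.44 with the quality filter, 2.56 as a mean over cells, 3.48 with median-of-ratios scaling, 0.48 with k-means, and 2.83 and 2.47 without the deep cells, overall and in the cluster. For the pericyte list (-0.65) it was -1.63, -2.04, -0.15, -2.00, -0.47, -1.64, -0.37 and -1.05 with 5 and 10 rule UMIs, 1 excluded UMI, the cluster, the quality filter, the mean over cells, median-of-ratios scaling and k-means, and -1.84 in the cluster without the deep cell. With k-means *Acta2* (3.36) reached -0.031 and *Tagln* (10.50) -0.25.

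For WT HFD against WT CD, 52, 50, 53, 31, 45 and 35 genes were higher (100 as reported) with 5 and 10 rule UMIs, in the cluster, in *Myh11* cells, in *Kcnj8*/*Abcc9* cells and in the cluster without the deep cell. Lower genes (51) numbered 30 with 10 rule UMIs, 116 with 1 excluded UMI, 29 in *Myh11* cells and 16 in *Kcnj8*/*Abcc9* cells. The smooth muscle list (0.30) was at 0.49 and 0.39 with 5 and 10 rule UMIs, 1.02 with 1 excluded UMI, 1.26 with the quality filter, 0.080 as a mean over cells, 0.68 in *Myh11* cells, 0.40 in *Kcnj8*/*Abcc9* cells, -0.63 without the deep cells and -0.65 in the cluster without them. The pericyte list (0.35) was at 0.77 with 1 excluded UMI, -0.074 in *Myh11* cells, and 0.56 and 0.59 without the deep cells. Reversals were *Rrad* (0.82 with the quality filter), and *Acta2* (-0.97 and -0.89) and *Tagln* (-0.68 and -0.61) without the deep cells. *Vtn* (-1.36 in *Myh11* cells, from 2 against 4 UMIs), *Fn1* (-0.70 with 1 excluded UMI) and *Col8a1* (-0.29 with 10 rule UMIs) reversed too. So did *Apoe* (1.12, 1.03, 4.21 and 4.62 with 5 and 10 rule UMIs and in the cluster with and without the deep cell). *Ifitm3* reversed (-0.29) in *Kcnj8*/*Abcc9* cells in and out of the cluster. Cells outside it held 44 of its 56 WT CD and 70 of its 162 WT HFD UMIs.

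For KO HFD against WT HFD, 78, 84, 92, 46 and 81 genes were higher (147) with 5 and 10 rule UMIs, in the cluster, in *Myh11* cells and without the deep cells. Lower genes (92) numbered 51, 51, 52, 31 and 60 in the same order and 26 in the cluster without the deep cell. The smooth muscle list (-0.93) was at -0.79 with 5 rule UMIs, -1.19 with 1 excluded UMI, -1.12 with the quality filter, -0.52 as a mean over cells, -1.03 with median-of-ratios scaling, -0.75 in *Myh11* cells, -0.014 in *Kcnj8*/*Abcc9* cells, 0.22 without the deep cells and -0.013 in the cluster without them. The pericyte list (0.20) was at 0.50 and 0.42 with 5 and 10 rule UMIs, -0.10 with 1 excluded UMI, 0.40 in the cluster, 0.92 in *Myh11* cells and -0.39 in *Kcnj8*/*Abcc9* cells. In *Kcnj8*/*Abcc9* cells *Fst* (-2.85), *Ccn3* (-1.43), *Acta2* (3.76), *Steap4* (-0.22) and *Ebf1* (-0.74) reversed (these include cells outside the cluster: 159 *Acta2* UMIs of the KO HFD library lay in the *Myog* cell, and 14 of 18 WT HFD *Fst* UMIs in 1 FAP-type cell), without the deep cells *Acta2* (0.56, and 0.25 in the cluster) and *Tagln* (0.50 and 0.20) did, and *Cilp* reached 0.13 with 10 rule UMIs and 0.013 in the cluster. Against other cells, 284, 274, 313, 98 and 279 genes were higher (181) with 10 rule UMIs, in the cluster, with filters of 50 and 200 CPM and in the cluster without the deep cell. Lower genes (150) numbered 269, 256, 243, 85 and 256 in that order, 80 with 1 excluded UMI and 97 with the quality filter.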

Other observations

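A group of 6 members of the shared cluster, chosen after their values were seen, held 32 to 83 UMIs of the FAP list, where the next highest member held 14. None came from the WT CD library, 2 from the WT HFD and 4 from the KO HFD library, with a median of 6710.5 UMIs per cell. They held 117 *Fst* UMIs against 0 in the other 47 members of the cluster, 64 of *Ccn3* against 0, 42 of *Col14a1* against 0 and 40 of *Ccl19*, a chemokine of stromal cells that guides lymphocytes, against 0. *Apoe* was at 132 against 13 UMIs, *Dcn* at 123 against 7 and *Colec11*, a collectin of the pericyte list, at 43 against 7. *Rgs5* was at 61 against 982 UMIs, and *Fabp4* was at 0 against 606. The *Fst*, *Ccn3*, *Apoe* and *Colec11* values given above for the shared cluster by library rest mostly on these cells. The *Apoe* ratio over all members also took in cells outside the cluster, which held 63 of its 65 WT CD UMIs.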
